A study of Canis lupus familiaris with 21 samples.

Results

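Chemokines and their receptors steer leukocytes, and 9 genes of this kind were followed here through canine cutaneous histiocytoma (CCH), a skin tumor of young dogs that arises from Langerhans cells and usually regresses after lymphocytes enter it. The genes were picked by name and were found among the 21399 gene entries of the deposited tables, each as a single entry. There were 5 genes of lymphoid homing, namely the chemokines CXCL13 and CCL19, their receptors CXCR5 and CCR7, and the lymphotoxin subunit LTB. The other 4 were genes of skin homing, namely the chemokines CCL17 and CCL22, their shared receptor CCR4, and CCR6, the receptor of CCL20.

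In lymph nodes and other lymphoid tissue, CXCL13 draws B cells and follicular helper T cells that carry CXCR5 into follicles, while CCL19 guides T cells and mature dendritic cells that carry CCR7 into the T cell zone. LTB forms the membrane-bound lymphotoxin complex with lymphotoxin alpha on lymphocytes, and its signal through the lymphotoxin beta receptor keeps stromal cells producing these chemokines. In inflamed skin, CCL17 and CCL22 are made by dendritic cells, Langerhans cells among them, and draw T cells that carry CCR4, while CCR6 is found on cells of the Langerhans lineage, on B cells and on some T cells.

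RNA from formalin-fixed, paraffin-embedded tumors of privately owned dogs was measured by QuantSeq 3′ sequencing, which counts reads near the 3′ end of transcripts. Group 1 (5 samples, 5 dogs aged 0.5 to 5.0 years, with 1 age not given) and group 2a (5 samples, 5 dogs aged 0.6 to 3.0 years) were tumor cell-rich tissue of stage 1 and stage 2. Group 2b (6 samples, 17 dogs aged 0.3 to 6.0 years by the labels, with 1 age not given) and group 3 (5 samples, 5 dogs aged 1.5 to 9.0 years) were lymphocyte-rich tissue of stage 2 and stage 3. Replicates 3 to 6 of group 2b were pools of tissue from 3 to 4 dogs, and all other samples came from 1 dog each. The dogs had received no treatment that the labels name, and the tissue was an archive of excised tumors with no normal skin or lymph node for comparison. All areas were chosen under the microscope for their share of tumor cells or lymphocytes, so each sample was a mixture of cells. The total of counted reads ran from 2113393 to 3559404 a sample, and the normalized count used here is the raw count divided by a size factor of 0.855 to 1.27.

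The markers of lymphocytes followed the labels in part. The summed normalized count of 10 T cell markers was 50.1 to 1877 in group 1 and 464 to 1530 in group 2a, against 2697 to 4179 in group 2b and 3082 to 4698 in group 3. Within group 1, which by its stage should hold no lymphocytes, replicates 3 and 4 had T cell sums of 1877 and 1260. The sum of 6 B cell markers was 12.02 to 76.8 in group 1, 10.4 to 46.7 in group 2a, 531 to 1243 in group 2b and 94.9 to 1058 in group 3, and the B cell marker MS4A1 had no read in any tumor cell-rich sample. A list of 8 Langerhans cell and CCH markers, of which 7 were measured, summed to 3252 to 6521 over all samples, and CD207 (langerin) was not analysed here. The DV200, the percentage of RNA fragments over 200 nucleotides, was lower in group 1 (64.5 to 71.2%) than in groups 2a (70.5 to 76.6%), 2b (72.5 to 76.9%) and 3 (71.2 to 75.8%), overlapping with group 2a between 70.5 and 71.2% and with group 3 at 71.2%.

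**Figure D1:**
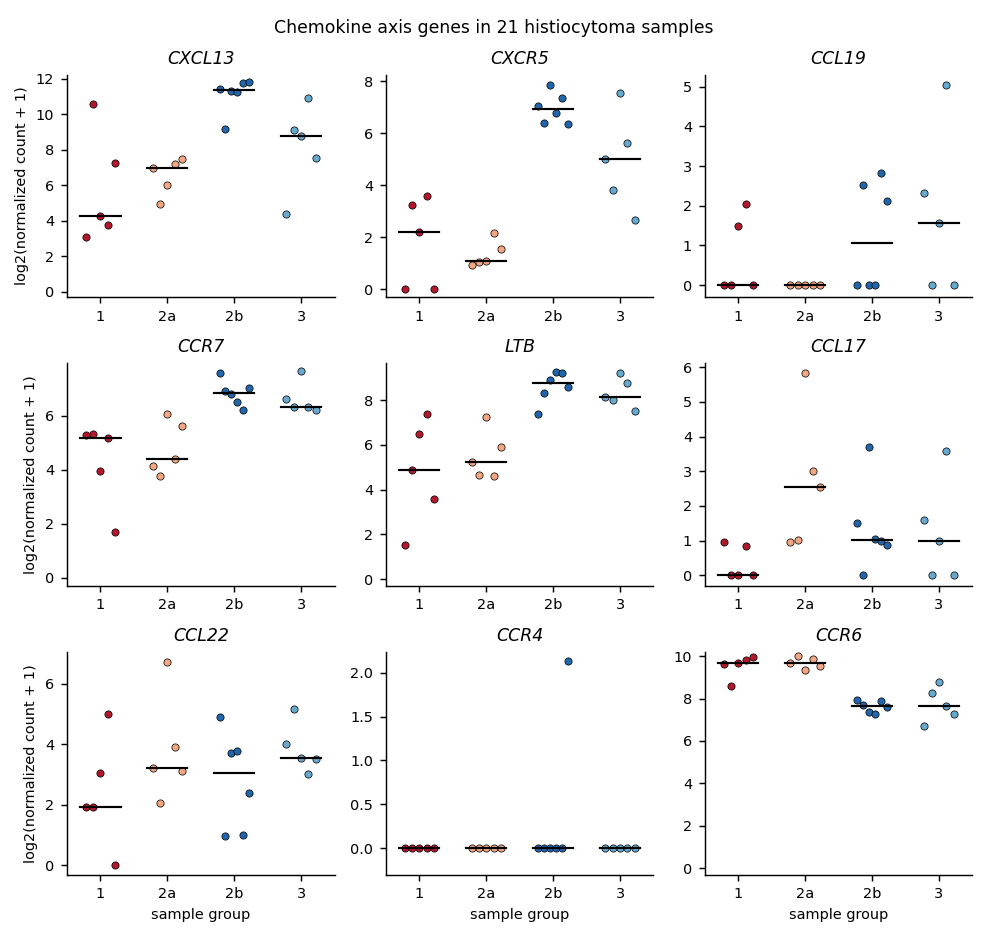
Level of the 9 genes in each of the 21 samples, as log2(normalized count + 1) on the vertical axis, by sample group. Points are samples and horizontal bars are group medians. CXCL13, CXCR5, CCR7 and LTB lay highest in the lymphocyte-rich groups 2b and 3, CCR6 lay highest in the tumor cell-rich groups 1 and 2a, and CCR4 had reads in 1 sample.

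Lymphocyte-rich and tumor cell-rich areas differed in most of the genes that had enough reads. A gene was tested in edgeR when it had at least 10 reads in at least 5 samples of the fit, and it was called when its log2 fold change was at least 1 in size and its p, adjusted by Benjamini-Hochberg over all genes tested, did not exceed 0.05. In group 2b against group 2a, 6 of the 9 genes were tested, and 5 were called where 9.55% of all 11545 genes were. CXCL13, CXCR5, CCR7 and LTB rose, a direction in which 5.98% of all genes were called, and CCR6 fell, as did 3.57% of all genes. CXCR5 had at most 3 reads in any sample of group 2a. It thus passed the filter through group 2b alone, and the filter favored that call. In group 3 against group 1, 6 were tested and 4 were called, against 8.33% of 11470 genes. CXCR5, CCR7 and LTB rose there (4.92% of all genes rose), and CCR6 fell (3.41% of all genes fell). CXCR5 passed the filter there through group 3 and replicate 4 of group 1 (14 reads), so the same limit holds. These are comparisons of bulk tissue, in which more cells of a type and more RNA per cell cannot be told apart.

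CXCL13 (chromosome 32, 38148529 to 38154567 on UU_Cfam_GSD_1.0) is the chemokine that organizes B cell follicles. Its normalized count in group 2b was 573 at the lowest, 2597 at the median and 3545 at the highest. In group 3 it was 19.98, 549, 435, 1932 and 184 for replicates 1 to 5. The tumor cell-rich samples were lower, with 122, 29.2, 63.3, 145 and 173 in group 2a and 7.56, 1496, 18.2, 12.6 and 149.7 in group 1. All 6 samples of group 2b lay above all of group 2a, but replicate 2 of group 1 stood among the lymphocyte-rich samples. Its T cell sum of 548 was the median of its group, and its B cell sum of 76.8 was the highest of the group. It also had the highest macrophage sum (4989, against 665 to 2360 in the others) and the highest fibroblast sum of the group (49635, against 5841 to 38297). Their part in its CXCL13 value was not tested. By median, the order was 2b, 3, 2a and 1, and each group overlapped with the next.

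The CXCL13 level was 23.4-fold higher in group 2b than in group 2a (log2 fold change 4.55 ± 0.51 SE, n = 6 and 5, edgeR adjusted p = 8.66e-05). Between groups 3 and 1 the log2 fold change was 0.89 ± 1.29 (edgeR adjusted p = 0.697), and it was 3.76 without replicate 2 of group 1 (edgeR adjusted p = 0.054). From 2b to 3, 4 of 5 samples of group 3 lay below the whole of group 2b, and the log2 fold change of -2.01 ± 0.72 did not pass the correction (edgeR adjusted p = 0.269). From 1 to 2a, the log2 fold change was -1.67 ± 1.19 (edgeR adjusted p = 0.504). That sign rested on replicate 2 of group 1, since it was 1.22 without it.

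CXCR5 (chromosome 5, 14946968 to 14958415), the receptor of CXCL13, was close to the counting limit in tumor cell-rich tissue. Over the 10 samples of groups 1 and 2a it had 35 reads, in 8 samples, with a highest normalized count of 11.02. Group 2b reached 80.1 at the lowest, 120.0 at the median and 231 at the highest. The 5 samples of group 3 had 31.0, 13.2, 184, 48.4 and 5.24, so replicate 3 lay within group 2b and the other 4 lay below all of it. By median, the order was 2b, 3, 1 and 2a. Groups 2b and 3 overlapped, groups 3 and 1 overlapped in 1 sample of group 3, and groups 1 and 2a overlapped.

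The log2 fold change of CXCR5 was 6.21 ± 0.43 in group 2b against 2a (edgeR adjusted p = 6.41e-06) and 3.54 ± 1.03 in group 3 against 1 (edgeR adjusted p = 0.0388). From 2b to 3 it was -1.22 ± 0.61 (edgeR adjusted p = 0.413). Without replicate 3 of group 3 this became -2.43 and was called (edgeR adjusted p = 0.0315), while CXCR5 had too few reads for edgeR in group 2a against 1. The B cell marker sums of group 3 had the same standout, with 1058 in replicate 3 and 94.9, 149.98, 297 and 97.4 in replicates 1, 2, 4 and 5. T cell sums in group 3 did not follow that order, and replicate 3 had the lowest of them at 3082. The part of B cell content in the CXCR5 values was not tested.

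**Figure D2:**
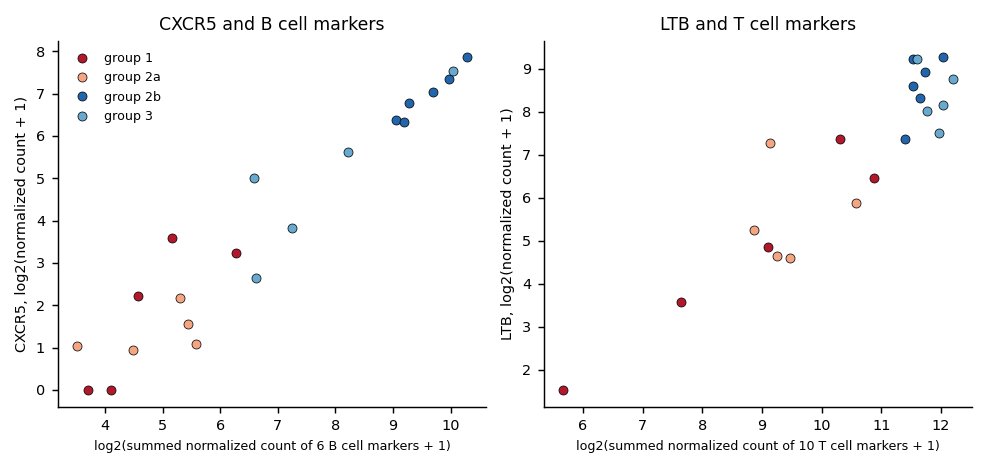
CXCR5 against the summed normalized count of 6 B cell markers (left) and LTB against that of 10 T cell markers (right) in 21 samples, all axes on a log2 scale after adding 1, colored by group. The CXCR5 level of replicate 3 of group 3 (184) sits with group 2b, as does its B cell sum (1058), and the LTB levels of lymphocyte-rich samples (163 to 612) spread over T cell sums of 2697 to 4698.

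LTB (chromosome 12, 1218053 to 1219848) was higher in lymphocyte-rich tissue of both stages. Group 2b had 163 at the lowest, 434 at the median and 612 at the highest, and group 3 had 283, 256, 598, 432 and 181. The values of group 2a were 37.1, 24.0, 152, 23.4 and 58.1. Those of group 1 were 1.89, 28.1, 87.4, 165 and 10.9, highest in replicates 3 and 4, the samples with the highest T cell sums. Neither group 2b and 2a nor group 3 and 1 overlapped, whereas 2b overlapped with 3 and 1 with 2a. The log2 fold change was 2.85 ± 0.49 in group 2b against 2a (7.19-fold, edgeR adjusted p = 0.00135) and 2.56 ± 0.75 in group 3 against 1 (5.89-fold, edgeR adjusted p = 0.0401). It was -0.28 ± 0.33 from 2b to 3 and 0.011 ± 0.84 from 1 to 2a.

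CCR7 (chromosome 9, 22019550 to 22043479) marks naive and central memory T cells and mature dendritic cells. Group 2b had 72.3 at the lowest, 114 at the median and 189.5 at the highest, and group 3 had 97.9, 78.3, 198, 79.6 and 73.3. Group 2a had 16.7, 12.5, 65.5, 19.9 and 47.5, and group 1 had 37.8, 39.3, 14.6, 34.6 and 2.19. All 11 lymphocyte-rich samples lay above all 10 tumor cell-rich ones. The log2 fold change was 1.86 ± 0.40 in group 2b against 2a (3.62-fold, edgeR adjusted p = 0.00582) and 2.02 ± 0.53 in group 3 against 1 (4.06-fold, edgeR adjusted p = 0.0264). It was -0.16 ± 0.29 from 2b to 3 and 0.33 ± 0.63 from 1 to 2a.

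Markers of activated dendritic cells other than CCR7, namely LAMP3, CD83 and FSCN1, summed to 225 to 833 in group 1 and 252.2 to 762 in group 2a, against 784 to 1199.9 in group 2b and 959 to 2194 in group 3, with no marker at 0 throughout. Of these 3 genes, 1 was called in group 2b against 2a and 2 in group 3 against 1, all higher, where 9.55% and 8.33% of all genes were called. Their part in the CCR7 values was not tested.

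CCL19 (chromosome 11, 51593870 to 51595370), the ligand of CCR7, was near the limit of detection. It had 59 reads in all, in 8 of 21 samples, and 32 of them were in replicate 4 of group 3. Group 2a had no read in any of 5 samples, and 3 of 6 samples of group 2b had 4 to 6 reads. No difference was detectable at this depth in any of the 4 comparisons of groups (exact permutation p of 0.182 to 0.632, 2-sided, on log2(normalized count + 1)). CCL21, the other ligand of CCR7, did not pass the count filter in any comparison.

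CCR6 (chromosome 1, 55484239 to 55512089) was the one gene of the 9 that fell in lymphocyte-rich tissue. Its normalized count was 798, 387, 824, 893 and 991 in group 1 and 824, 1041, 641, 938 and 730.2 in group 2a. Group 2b ranged from 153 to 244 with a median of 199, and group 3 had 104, 307, 442, 199 and 156. The 6 samples of group 2b lay below all of group 2a, and 4 of 5 samples of group 3 lay below all of group 1. The log2 fold change was -2.07 ± 0.16 in group 2b against 2a (4.20-fold lower, edgeR adjusted p = 6.41e-06) and -1.68 ± 0.37 in group 3 against 1 (3.21-fold lower, edgeR adjusted p = 0.0121). It was 0.28 ± 0.29 from 2b to 3 and 0.11 ± 0.23 from 1 to 2a, and the groups overlapped in both.

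Of 6 Langerhans cell and CCH markers tested in group 2b against 2a, where CCR6 fell, 0 were called in edgeR. Over all genes 9.55% were called. The median log2 fold change of the 6 markers was 0.020 against -0.015 over all genes, and CDH1 (E-cadherin) had the lowest value, -1.04 ± 0.42 (edgeR adjusted p = 0.112). In the fit of all groups CDH1 had -0.92 ± 0.33 (edgeR adjusted p = 0.0393), under the fold threshold. The 6 markers had a median log2 fold change of 0.41 in that fit, and 0 were called, where 11.9% of all genes were. CDH1 was named after the values had been seen and does not stand for the list. The 7 measured markers summed to 4197 to 5458 in group 2a and 3252 to 6521 in group 2b. The list held ITGB2, AIF1, CDH1, DLA-DRA, DLA-DQA1, CD1A, CD207 and LYZ, several of which other leukocytes also carry. Macrophage and B cell markers had medians of 1.22 and 4.94 in that comparison. The sum is therefore no measure of Langerhans or tumor cell content. Keratinocyte markers summed to 229 to 3282 in group 2a and 180 to 2044 in group 2b, and 0 of 7 tested were called, with a median log2 fold change of -1.003. The lack of a call does not show that keratinocyte content was equal. CCL20, the ligand of CCR6, was not analysed here.

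CCL22 and CCL17 lie side by side on chromosome 2 (CCL17 at 58272358 to 58274870, CCL22 at 58310530 to 58316323), 35660 bases apart. Both chemokines bind CCR4. CCL22 was 2.83, 2.81, 7.29, 30.7 and 0 in group 1 and 8.35, 3.13, 103, 14.03 and 7.75 in group 2a. It ranged from 0.958 to 28.9 with a median of 8.16 in group 2b and was 15.0, 34.9, 10.7, 7.05 and 10.5 in group 3. All 4 groups overlapped with each other. In edgeR the log2 fold change was -1.43 ± 0.90 in group 2b against 2a (adjusted p = 0.311), 0.80 ± 0.85 in group 3 against 1 (adjusted p = 0.583) and 0.64 ± 0.70 from 2b to 3 (adjusted p = 0.75).

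CCL17 had 97 reads in all, 50 of which were in replicate 3 of group 2a, the sample that also had the highest CCL22. Its normalized counts were 0.945, 0, 0, 0.787 and 0 in group 1 and 0.928, 1.04, 55.5, 7.02 and 4.84 in group 2a. By reads it had 1, 1, 50, 6 and 5 in group 2a against 1, 0, 0, 1 and 0 in group 1, so the reads of 3 samples of group 2a exceeded those of every group 1 sample. The difference was 2.31 on the log2(normalized count + 1) scale (2-sided exact permutation p = 0.0159, unadjusted, n = 5 and 5), and it was the 1 of 12 such tests with a p of at most 0.05. The DV200 was also higher in group 2a (70.5 to 76.6% against 64.5 to 71.2%), and its part in the result was not tested. It kept a p of at most 0.0476 with a pseudocount of 0.5 or 5 and when any 1 sample was left out. No difference of CCL17 was detectable at this depth in the other 3 comparisons (exact permutation p of 0.227 to 0.87). The highest CCL17 values of the lymphocyte-rich groups were 12.1 in group 2b and 11.1 in group 3. CCL22 was higher by 1.42 from 1 to 2a on the same scale, which did not pass (exact permutation p = 0.214), and by 2.07 without replicate 4 of group 1 (exact permutation p = 0.0397).

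CCR4 (chromosome 23, 4040101 to 4041183) had 4 reads, all in replicate 6 of group 2b, a pool. The annotated gene spans 1083 bases. Whether reads fell beyond its annotated end was not tested. No statement on CCR4 is possible at this depth.

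**Figure D3:**
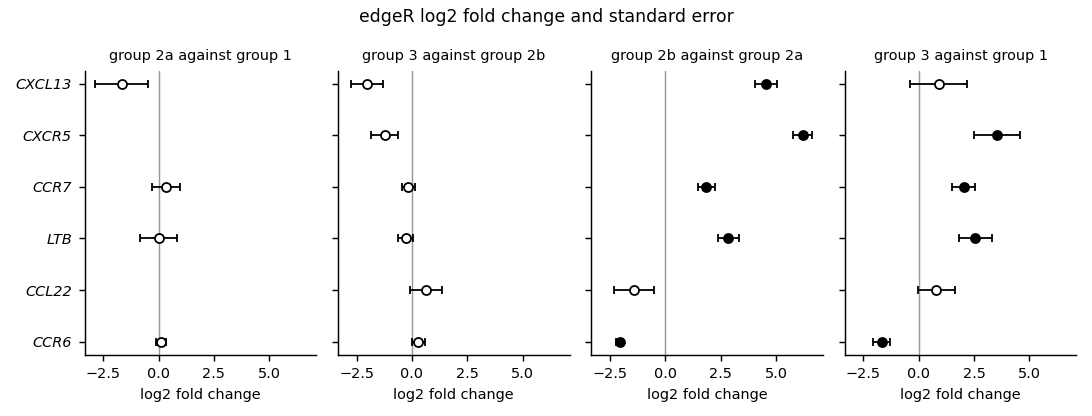
Log2 fold changes from edgeR for the genes that passed the count filter, in 4 comparisons, the first named group over the second. Bars are standard errors, filled points were called, and a missing point means that the gene had too few reads to be tested. The 9 filled points all belong to the 2 comparisons between kinds of area on the right, and the 10 open points of the stage comparisons on the left include none that was called.

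Neither comparison of stages within 1 kind of area called any of the genes. In group 2a against group 1, 4 were tested and 0 were called in edgeR, DESeq2 or limma, 0 had an unadjusted p under 0.05, and 0.393% of all 11200 genes were called. In group 3 against group 2b, 6 were tested, 0 were called in edgeR, DESeq2 or limma, 1 (CXCL13) had an unadjusted p under 0.05, and 0.0428% of all 11685 genes were called. Whether the step from 2b to 3 differed from the step from 1 to 2a was also tested in 1 fit of all groups, and for 6 genes 0 differed and 0 had an unadjusted p under 0.05, where 5.34% of 12505 genes did differ by an adjusted p not above 0.05. The standard errors of that difference were 0.40 to 1.45 on the log2 scale.

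Averaged over both stages, the lymphocyte-rich groups differed from the tumor cell-rich groups in 5 of 6 genes tested, where 11.9% of 12505 genes were called, 7.61% higher and 4.29% lower. CXCR5 again passed the filter mainly through the lymphocyte-rich samples, where it was high. The log2 fold change was 4.87 ± 0.60 for CXCR5, 2.72 ± 0.77 for CXCL13, 2.71 ± 0.48 for LTB, 1.94 ± 0.35 for CCR7 and -1.88 ± 0.21 for CCR6, with edgeR adjusted p of 1.69e-06 to 0.0104. Without replicate 2 of group 1 the value of CXCL13 was 4.16 (edgeR adjusted p = 9.24e-05). CCL22 had -0.32 ± 0.67 (edgeR adjusted p = 0.768).

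The calls between group 3 and group 1 were less firm than those between 2b and 2a. With the DV200 as a covariate 0 of the 4 remained, while all 5 of the other comparison did. The loss was not particular to these genes. Over all genes 62 of 11470 were called with this covariate in group 3 against 1, in place of 955. In group 2b against 2a they were 1031 of 11545, in place of 1102. CCR6 kept its size in group 3 against 1 (-2.21), while CXCR5, LTB and CCR7 shrank to 1.21, 1.32 and 0.74. The DV200 that the labels give for replicate 5 of group 3 differs from that in the study's sample list. With the covariate kept and that sample left out, 0 of the 4 calls remained as well, where 25 of 11256 genes were called. By the labels, the DV200 separated groups 1 and 3 except for a shared value of 71.2%. When any 1 sample was left out, 1 to 4 of the 4 calls remained. LTB lost its call without replicate 2, 3 or 5 of group 1 or replicate 1, 2, 3 or 4 of group 3, CXCR5 without replicate 1, 3 or 5 of group 1, and CCR7 without replicate 3 of either group. CXCR5 had too few samples with 10 reads to be tested without replicate 4 of group 1 or without replicate 1, 2, 3 or 4 of group 3. When group 2b was cut down to its 2 samples from single dogs and set against 2a, CXCL13 and CCR6 were called, LTB and CCR7 were not (edgeR adjusted p = 0.16 and 0.0863), and CXCR5 was not tested.

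The receptors and LTB were also set against the T cell markers of the same sample, as the log2 of the gene minus the mean log2 of the 10 T cell markers, each after adding 1. Of 16 such 2-sided exact permutation tests, 4 genes over 4 comparisons, 4 had a p of at most 0.05. CXCR5 was higher relative to T cell markers in group 2b than in 2a by 3.51 (means -0.16 ± 0.54 SD, n = 6, and -3.68 ± 0.53, n = 5, exact permutation p = 0.00216, the smallest possible). In group 3 it was lower than in group 2b, with a difference of -2.23 (mean -2.40 ± 1.92, n = 5, exact permutation p = 0.0216). The 6 B cell markers were then used instead, a choice made after the values had been seen. CXCR5 differed between 2b and 2a on that scale (by 1.32, exact permutation p = 0.00216). In group 2a, however, CXCR5 had 1 to 3 reads a sample and the 6 markers summed to 10.4 to 46.7. Both lay near the floor there, so the 1 added weighs on that ratio, which does not show a rise beyond B cell content. The difference between 3 and 2b was -0.36 (exact permutation p = 0.394).

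LTB and CCR7 did not pass relative to T cell markers in any comparison. With a sample left out LTB did in 2 cases, at 1.49 in group 2b against 2a without replicate 3 of group 2a and at 0.92 in group 3 against 1 without replicate 4 of group 1. From 2a to 2b the difference was 0.99 for LTB (exact permutation p = 0.108) and -0.051 for CCR7 (exact permutation p = 0.911). Between 1 and 3 it was 0.62 for LTB (exact permutation p = 0.222) and -0.61 for CCR7 (exact permutation p = 0.683). Relative to B cell markers both were lower in group 2b than in 2a, CCR7 by a difference of -2.24 (exact permutation p = 0.00216, no overlap) and LTB by -1.20 (exact permutation p = 0.0411). The B cell markers lay near the floor in group 2a, so the 1 added weighs on these values. On that scale both were higher in group 3 than in 2b, CCR7 by 1.47 (exact permutation p = 0.0173) and LTB by 1.40 (exact permutation p = 0.0281), where the values relative to T cell markers were -0.40 and -0.48. From 2b to 3 their own log2 fold changes were -0.16 ± 0.29 and -0.28 ± 0.33, while the B cell markers had a median of -1.33. These 2 tests thus do not show a rise of CCR7 or LTB. CCR6 was lower relative to T cell markers in group 2b than in 2a, with a difference of -4.15 (mean 0.50 against 4.65, exact permutation p = 0.00216) and in group 3 than in group 1, with a difference of -4.75 (mean 0.42 against 5.17, exact permutation p = 0.00794), as its own count fell while the markers rose. The areas were chosen for lymphocytes, so the markers differ between them by selection. These CCR6 tests therefore add nothing to the fall of its own count.

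**Figure D4:**
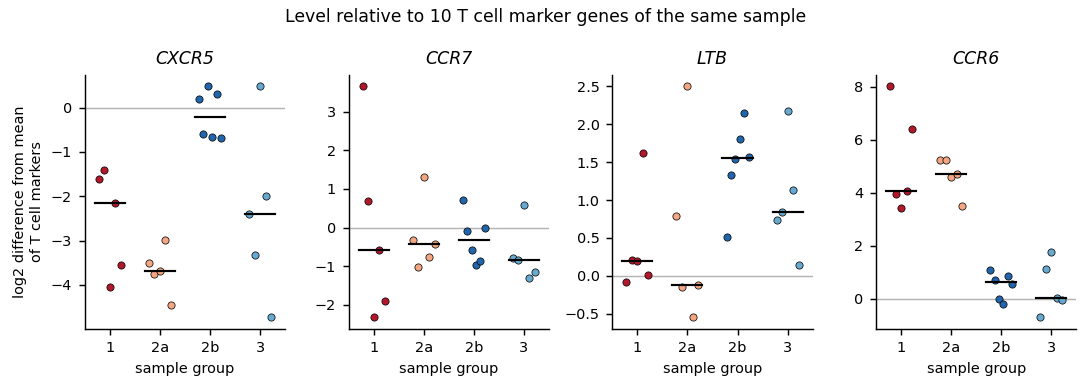
Level of CXCR5, CCR7, LTB and CCR6 relative to T cell markers in each sample, as log2(normalized count + 1) minus the mean of the same over 10 T cell markers, by group, with group medians as bars. CXCR5 lies highest in group 2b (mean -0.16), CCR6 lies lower in groups 2b and 3 (means 0.50 and 0.42) than in groups 1 and 2a (5.17 and 4.65), and the groups overlap for CCR7 and LTB.

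Ligands and receptors were compared across samples within each kind of area, which are separate clusters. Of 7 relations none held after Benjamini-Hochberg adjustment. CXCL13 and CXCR5 had r = 0.57 (permutation p = 0.0687, adjusted p = 0.24) and rho = 0.50 (permutation p = 0.124, adjusted p = 0.433) over 11 lymphocyte-rich samples, and r = 0.59 without the 2 samples farthest from the CXCR5 median. With group means subtracted, r was 0.23 (permutation p = 0.478, adjusted p = 0.807), so the relation was not shown within groups. In the 10 tumor cell-rich samples r was 0.21 (permutation p = 0.553, adjusted p = 0.874) and rho was 0.09 (permutation p = 0.816, adjusted p = 0.816), and r was 0.18 without the 2 farthest samples.

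CCL17 and CCL22 had the highest r, 0.76, over the 10 tumor cell-rich samples (permutation p = 0.0123, adjusted p = 0.0862), with rho = 0.62 (permutation p = 0.0631, adjusted p = 0.433). It fell to 0.36 without the 2 samples farthest from the CCL17 median, replicate 3 of group 2a among them. With group means subtracted, r was 0.72 (permutation p = 0.017, adjusted p = 0.119), rho was 0.67 (permutation p = 0.0392, adjusted p = 0.274) and r without the 2 farthest samples was 0.57. Over the 11 lymphocyte-rich samples r was 0.12 (permutation p = 0.749, adjusted p = 0.874) and rho was 0.24 (permutation p = 0.481, adjusted p = 0.816), with r = 0.20 without the 2 farthest samples. LTB with CXCL13 had r = 0.36 in lymphocyte-rich samples (permutation p = 0.279, adjusted p = 0.652), rho = 0.25 (permutation p = 0.468, adjusted p = 0.816) and r = 0.57 without the 2 farthest samples. In tumor cell-rich samples it had r = 0.031 (permutation p = 0.932, adjusted p = 0.932), rho = -0.13 (permutation p = 0.731, adjusted p = 0.816) and r = -0.36 without the 2 farthest. CCL19 with CCR7 had r = -0.17 in lymphocyte-rich samples (permutation p = 0.625, adjusted p = 0.874), rho = -0.11 (permutation p = 0.745, adjusted p = 0.816) and r = 0.25 without the 2 farthest.

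Some of the other chemokines and receptors, from lists fixed by name, also differed by kind of area. Among 10 other chemokines tested in the fit of all groups, 3 rose and 0 fell in lymphocyte-rich areas, with a median log2 fold change of 0.45 against 0.0077 over all genes, of which 7.61% rose and 4.29% fell. They were CCL4 (2.93 ± 0.60) and CCL5 (2.05 ± 0.48), which draw effector T cells, and CXCL10 (2.46 ± 0.41), an interferon-induced ligand of CXCR3. CCL4 had at most 2.73 normalized counts in group 1 and 8.72 in group 2a. It thus passed the filter through the lymphocyte-rich samples, and the filter favored that call. Among 10 other receptors, 5 rose and 1 fell, with a median of 0.95. XCR1, a receptor of cross-presenting dendritic cells, rose by 2.09 ± 0.46, CXCR6, found on tissue-resident T cells, by 1.73 ± 0.43, and ACKR2, a decoy receptor for inflammatory chemokines, by 1.35 ± 0.39. CCR10, a receptor of skin-homing T cells that binds CCL27, fell by 2.45 on the log2 scale (SE 0.48), from 8.35 to 75.5 normalized counts in groups 1 and 2a to 0 to 10.4 in groups 2b and 3, and so moved in the same direction as CCR6. CCR10 passed the filter mainly through the tumor cell-rich samples, where it was high, so the same limit holds. In either stage comparison 0 genes of both lists were called in edgeR, where 0.393% (2a against 1) and 0.0428% (3 against 2b) of all genes were.

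Around LTB, the lymphotoxin and alternative NF-kB list had 7 genes tested besides LTB itself. In the fit of all groups 1 rose and 0 fell, with a median of 0.74, where 7.61% of all genes rose and 4.29% fell. That gene was TRAF3 (1.47 ± 0.21), a negative regulator of the alternative pathway, while RELB, a subunit of its transcription factor, was called in group 3 against 1 (1.09 ± 0.26) and had 0.76 ± 0.20 in group 2b against 2a, under the fold threshold (edgeR adjusted p = 0.0161). TNFRSF13C, the BAFF receptor of B cells, rose in group 2b against 2a (1.43 ± 0.22), and its highest value in group 3 was 558 with a median of 114.

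Of 11 lymphocyte homing and adhesion genes tested, 6 rose and 0 fell in the fit of all groups, with a median of 1.19, where 7.61% of all genes rose. ITGAL, an integrin subunit of lymphocytes, rose by 2.47 ± 0.28, CD69, which holds lymphocytes in tissue, by 2.08 ± 0.19, and KLF2, a transcription factor of quiescent, recirculating T cells, by 1.69 ± 0.20.

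Of 6 genes of follicular helper T cells, which carry CXCR5, 4 rose and 0 fell, with a median of 1.71, where 7.61% of all genes rose and 4.29% fell. The general T cell markers had a higher median of 2.17 in the same fit, with 9 of 9 tested called. By median the list thus did not rise beyond T cells in general. IL21, the cytokine of these cells, rose by 4.13 ± 0.50, SH2D1A, an adaptor of T cell and B cell contact, by 2.80 ± 0.41, and TOX2 by 2.13 ± 0.37. IL21 was at most 3.94 in group 1 and had a median of 6.25 in group 2a. It thus passed the filter mainly through the lymphocyte-rich samples, and the filter favored that call. TOX2 was also higher in group 3 than in group 2b (1.003 ± 0.17, edgeR adjusted p = 0.0381), close to the fold threshold. It was called in 7 of 25 alternatives, with log2 fold changes of 0.88 to 1.13 and adjusted p of 6.41e-05 to 0.998. It was one of the 5 genes called there in edgeR, whereas CXCR5 and CXCL13 had negative values in that comparison. BTLA rose in group 2b against 2a (1.64 ± 0.32). In group 3, however, its median was 16.0 (11.5 to 242), below the median of 104 in group 1 (36.5 to 132). For the skin, 5 genes of the type 2 cytokine axis were tested, and IL13RA1, a subunit of the interleukin 13 receptor, fell by 1.38 on the log2 scale (SE 0.15) as the one call. Of 2 genes of the type 17 axis, IL23R rose by 2.06 ± 0.60. For both lists the share over all genes was 7.61% higher and 4.29% lower. IL23R was near the counting limit, at 0 to 9.45 in group 1 and 0 to 3.13 in group 2a. It was 2.80 to 15.3 in group 2b and 0.943 to 13.99 in group 3, and passed the filter mainly through lymphocyte-rich samples.

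The remaining cell type markers set the ground for these values. In the fit of all groups 9 of 9 T cell and 6 of 6 B cell markers tested rose, as did 4 of 6 macrophage, 1 of 3 activated dendritic cell and 1 of 4 endothelial markers. Over all genes 7.61% rose. The areas were chosen for lymphocytes, so the lymphocyte markers differ between them by selection. Of the 6 B cell markers, 1 passed the filter in group 2a against 1. Most of them thus entered the test through the lymphocyte-rich samples, where they were high. None of 4 plasma cell, 6 Langerhans cell and CCH, 7 keratinocyte, 3 mast cell and 5 fibroblast markers was called in edgeR, where 11.9% of all genes were. At that share, lists this short can hold no call without their cells being equal between areas. Keratinocyte markers had a median log2 fold change of -1.04. Of the follicular dendritic cell markers other than CXCL13 only FCER2 was measured, and it was 0 to 3.28 in all samples. Macrophage markers summed to 665 to 4989 in group 1, 1150 to 3048 in group 2a, 2331 to 5621 in group 2b and 3252 to 7207 in group 3. The part of these cells in the values of the chemokines was not tested.

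The genes whose values followed each of the members most closely within groups were taken over 21 samples from 12504 or 12505 genes, after the group mean was subtracted from log2(normalized count + 1). For CXCL13 they were GPR84 (r = 0.81), CCDC141 (0.77) and NECTIN2 (0.76), and for CXCR5 they were LOC490269 (0.86), SGSM2 and LOC111092200 (both 0.80). LTB had RNF213 (0.93), ATP2A3 (0.90) and DDX58 (0.89), the highest values of any of the 8 genes compared. CCR7 was followed by ANKRD33B (0.85), LOC488316 (0.81) and MAN2C1 (0.80), and CCR6 by TRABD2A (0.85), VAV3 and AKAP8 (both 0.84). The low genes had ECHDC3 (0.85), ODF2L (0.80) and SEL1L (0.79) for CCL19, LOC609068 and EGFL7 (both 0.74) and ZEB1 (0.72) for CCL17, and BCL2L12 (0.83), MFGE8 and TENT4A (both 0.81) for CCL22. Each is the best of many genes over samples that share the tissue mixture, and is given as a description only.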

How the data were processed

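RNA of 21 CCH samples was sequenced by QuantSeq 3′ FWD. The authors trimmed reads with Cutadapt and aligned them with STAR to UU_Cfam_GSD_1.0, and the submitters' processing notes name featureCounts and DESeq2, with versions, multi-mapping and strand settings not given in the sources used here. The authors deposited raw counts per gene and, as a signal, the normalized count and its mean over all samples. The authors also deposited log2 fold changes and p-values of their own comparisons, which were not used. Groups and replicate numbers came from the labels. RefSeq names and positions on that assembly were found for all 21399 entries.

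Raw counts were tested with the quasi-likelihood F-test of edgeR 4.0.16 in R 4.3.3 (TMM scaling, at least 10 counts in at least 5 samples, Benjamini-Hochberg adjustment), with the 2 compared groups only or, for the average and the difference of steps, with all 4 groups. Genes below the filter were compared by exact permutation tests on log2(normalized count + 1). CCR4, with reads in 1 sample, was left out of the comparison with T cell markers, and its pairs and that of CCL20 were not computed. Alternatives used DESeq2 1.42.0, limma 3.58.1, other factors, filters, pseudocounts, covariates and samples. Other steps ran in Python 3.11.15 with scipy 1.17.1, pandas 2.3.3, numpy 2.4.6, and matplotlib 3.10.9 for the plots. The model was tested on simulated data.

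The 9 genes, the lists and the tests were chosen with earlier results of these data known. Genes named beside the 9 were those of each related list called in at least 1 of the 4 comparisons of groups or in the average over areas, up to 4 a list by size of log2 fold change, and for each of the 9 the 3 genes of highest r; CDH1 and single markers were named after their values were seen. Several listed genes, CCL20, CD207, FDCSP and CR2 among them, were not analysed here, and 1 gene that the rule names is not reported here. No 2 samples of a group agreed within sampling noise. The p-values measure the spread between samples, which were separate dogs or pools of dogs. Each pool in group 2b averages over 3 to 4 dogs, so the spread of that group is not one between single dogs. A value of 3 reads or fewer is at the counting limit, which covers counting error only.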

Additional observations from a re-analysis of the deposited data

Results flagged for a closer look

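Of 32 sets of values of 1 gene in 1 group, 3 had a sample whose gap to its nearest neighbour took up most of the range of the group (Dixon's criterion at the 95% level on log2(normalized count + 1)), where chance gives about 1 in 20. In group 2b, CXCL13 was 573 in replicate 2, a single-dog sample, and the gap to the next sample was 0.78 of the range. In group 1, CCR6 was 387 in replicate 2, with a gap of 0.77 of the range, and the same sample had the highest CXCL13 of its group. CCR4 was 3.37 in replicate 6 of group 2b and 0 in the other samples of that group.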

How the results depend on the processing

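Leaving out any 1 sample gave 5 calls in group 2b against 2a and in the average over areas, 0 in 2a against 1, 1 to 4 calls in group 3 against 1, 0 to 1 in group 3 against 2b, 0 for the difference between steps, 1 to 2 low genes with a p of at most 0.05 and 4 to 5 of 16 tests relative to T cell markers. In group 3 against 1, 0 of the 9 genes were called with DV200 as a covariate (CXCR5 1.21, LTB 1.32, CCR7 0.74, CCR6 -2.21), 1 with at least 10 counts in every sample and 2 without replicates 3 and 4 of group 1, an alternative added after seeing the data. The fit of both areas gave 1 call with at least 10 counts in every sample, where CCR6 alone was tested. Single-dog samples of group 2b gave 2 calls against 2a, and CXCL13 lost its call in the average over areas (2.40, edgeR adjusted p = 0.0808). Measured against B cell markers, also added later, 8 of 16 tests passed in place of 4. The cause of these changes was not tested.

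The replicate numbers did not pair the samples, which came from different dogs (correlations of same-numbered samples -0.27 to 0.14, with 0 to 2 of 5 pairs closest to their own number). With a replicate block, CXCR5 lost its call in group 3 against 1 (3.32, edgeR adjusted p = 0.0539), leaving 3, as it did in limma with a pseudocount of 0.5 (3.54, adjusted p = 0.0523). The block turned 3 values that were not called: CXCL13 in 2a against 1 (1.23), CCL22 in the average over areas (0.30) and CXCR5 in the difference between steps (-0.52).

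Other signs that turned belonged to values that had not passed their test. In limma with a pseudocount of 1, 0.5 and 5, CXCL13 in 2a against 1 was 0.72, 0.75 and 0.55, CCL22 over areas 0.23, 0.30 and 0.075, and in the difference between steps CXCR5 was -1.58, -1.75 and -1.44 and CCR6 -0.029, -0.029 and -0.027. DV200 as a covariate gave CCR7 -1.24 and LTB -2.16 in 2a against 1, CCR7 0.061 in 3 against 2b, CCL22 -1.18 in 3 against 1, and CCR7 0.99, LTB 1.24 and CCL22 2.92 in the difference between steps. With replicate 5 of group 3 also left out, added after seeing the data, 0 of the 9 genes were called in 3 against 1, CCR7 was 0.078 in 3 against 2b, and CCR7 0.99, LTB 1.26 and CCL22 2.91 in the difference between steps. Without replicates 3 and 4 of group 1, CCL22 over areas was 0.74, and in the difference between steps CXCL13 was 0.37 and CXCR5 -0.45. In 1 fit of all groups LTB was -0.00186 in 2a against 1. In 3 against 2b, CCR7 was 0.073 with pools only and LTB 0.54 with single dogs only. Relative to T cell markers, CXCR5 in 3 against 1 was -0.47 with a pseudocount of 5 and -0.12 with the CD3 genes alone, and LTB in 2a against 1 was -0.12 with those. Relative to B cell markers, CCR7 was 0.28 in 2a against 1 and 1.47 in 3 against 2b, LTB 1.40 in 3 against 2b and -1.20 in 2b against 2a, and CCR6 1.80 in 3 against 2b, and all but the first of these passed (exact permutation p of 0.00216 to 0.0411). In 3 against 2b the B cell markers had a median log2 fold change of -1.33, and CCR7, LTB and CCR6 were not called on their own counts. The r of LTB and CXCL13 in tumor cell-rich samples was -0.0693 with a pseudocount of 5, -0.0172 with TMM-scaled CPM and -0.00869 with group means subtracted.

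With 1 sample left out, these ranges crossed 0. In 2a against 1 they were -1.97 to 1.22 for CXCL13, -0.086 to 0.53 for CCR7, -0.70 to 0.87 for LTB and -0.060 to 0.21 for CCR6. In 3 against 2b they were -0.52 to 0.026 for CCR7 and -0.053 to 0.48 for CCR6, and in 3 against 1 -0.21 to 3.76 for CXCL13. CCL22 over areas ran from -0.66 to 0.54. The difference between steps ran from -2.36 to 0.74 for CCL22, -0.17 to 0.37 for CCR6, -0.98 to 0.62 for CXCR5 and -1.14 to 0.44 for LTB. Relative to T cell markers, CCR6 ran from -0.95 to 0.20 in 2a against 1 and -0.41 to 0.20 in 3 against 2b, CCR7 from -0.71 to 0.78 in 2a against 1, -0.26 to 0.34 in 2b against 2a and -1.16 to 0.33 in 3 against 1, CXCR5 from -0.55 to 0.75 in 3 against 1, and LTB from -0.40 to 0.41 in 2a against 1.

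Over all genes, the alternatives other than leaving out a sample called 0 to 264 in place of 44 in 2a against 1, 0 to 47 in place of 5 in 3 against 2b, 111 to 1909 in place of 1102 in 2b against 2a, 25 to 1593 in place of 955 in 3 against 1, 548 to 3686 in place of 1489 over areas and 60 to 1072 in place of 668 for the difference between steps. Depth limits CCL19, CCL17, CCL22 and CCR4, which had 59, 97, 321 and 4 reads over 21 samples.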
